A study of Mus musculus with 8 samples.

Results

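The 10 genes described here mark liver cells that are immature or belong to the bile ducts: Afp, H19, Igf2, Gpc3 and Dlk1 of the fetal liver, and Sox9, Krt7, Krt19, Epcam and Spp1 of biliary and oval cells. They were taken by name, 10 of 49826 genes on one array design and 10 of 34761 on the other, to see whether BM-derived hepatocytes carried an immature or a biliary profile. The study hybridized RNA to 1-colour Agilent arrays, 2 for each of 4 groups, and each array held cells pooled from 3 mice. Lin- BM cells (arrays L3 and L4) were bone marrow cells of female eGFP donors (C57Bl6/J-Tg(UBCGFP) 30Scha/J, 6 to 8 weeks old) left after magnetic depletion of cells with blood lineage antigens, and were the negative control. BM-derived hepatocytes (arrays B1 and B2 at 1 month, G1 and G3 at 5 months after transplantation) were eGFP-positive cells sorted from the livers of male hemophilia A mice of the F8tm1Kaz line, whose mixed background is not that of the donors. These recipients were 6 to 8 weeks old when they received acetaminophen, which injures the liver, and then Lin- eGFP cells by the tail vein. Primary hepatocytes (arrays H2 and H4) were the positive control, and their strain and treatment are not given in the sources used here. The eGFP transgene is driven by a ubiquitin promoter and is not limited to 1 cell type. Before the sort a slow spin was used to enrich hepatocytes over the other cells of the liver, and the study stained sorted cells for albumin to look at their purity.

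In the fetal liver, hepatoblasts give rise to both hepatocytes and bile duct cells. Hepatoblasts secrete alpha-fetoprotein, the product of Afp, and express the imprinted genes H19, Igf2 and Dlk1, which are largely shut down in hepatocytes after birth. Bile duct cells keep keratins 7 and 19, the adhesion molecule EpCAM, the transcription factor SOX9 and secreted osteopontin (Spp1), and oval cells, which appear in injured liver, carry both kinds of genes.

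The arrays came in 2 designs, each on a slide of its own. The first slide held the Lin- BM cells with the 1-month hepatocytes, and the second the primary with the 5-month hepatocytes. A probe is a DNA strand of 60 bases, and a difference between the slides can be read only where the same probe was printed on both. This held for Afp, Sox9, Gpc3, Krt7, Krt19 and Epcam, whose probes open, 5′ to 3′ over their first 30 bases, as follows.
Afp: gtgagccttttggcttaactgtaactgcta
Sox9: ataaaaccttaaagcgttcttataatatgg
Gpc3: aaatggtatctttatgaggatggtaaattt
Krt7: cagcatcgcagaggctgaggaacaagggga
Krt19: acggaggcccgttatggagtccagctgtca
Epcam: aaatcagcaaaatatgagaaggctgagata

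In the mouse build mm9, the second design places these probes at chr5:90937781-90937840 (plus strand) for Afp, chr11:112648809-112648868 (plus) for Sox9, chrX:49625740-49625799 (minus) for Gpc3, chr15:101253718-101253777 (plus) for Krt7 and chr11:100002392-100002451 (minus) for Krt19. The Epcam probe covers chr17:88048972-88049800 (plus), 829 bases of the genome for 60 of probe, so it spans at least 1 intron. The genome and annotation needed to place the others in a coding exon or an untranslated region were not used here.

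Spp1 was read by different stretches of its RNA on the first and on the second slide, whose probes open as follows.
Spp1, first slide: cttagtctgttgtttcatgcaaacaccgtt
Spp1, second slide: aggtgatagcttggcttatggactgaggtc

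The second lies at chr5:104868502-104868561 (mm9, plus strand). For H19, a long noncoding RNA, the probes of both slides overlapped without being the same, and the capitals mark the 47 bases they share.
H19, first slide: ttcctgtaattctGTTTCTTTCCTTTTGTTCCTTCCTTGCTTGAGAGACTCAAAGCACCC
H19, second slide: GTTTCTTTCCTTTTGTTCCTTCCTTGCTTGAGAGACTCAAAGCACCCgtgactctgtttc

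The H19 probe of the second slide lies at chr7:149761756-149761815 (mm9, minus strand). For Spp1, H19, Igf2 and Dlk1, no value was therefore compared between the slides.

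Signals below are those of Feature Extraction after subtraction of the local background, in arbitrary intensity units, and a probe was taken as detected where the software marked it well above background. A gene entered a comparison where a probe was detected on both arrays of at least 1 group. Changes are differences of log2 signals, each first set relative to the 75th percentile of its array, fitted with limma. Calls needed a log2 change beyond 0.6 in size and a Benjamini-Hochberg adjusted p below 0.05. The 75th percentile of the signal was lowest on B1 (75.5) and B2 (89.5), against at least 122.2 elsewhere, which leaves faint signals of 1-month hepatocytes nearest to background. Markers were read as a check of the labels. On the first design 11 of 11 adult hepatocyte markers were detected on both arrays at 1 month, and on the second design 12 of 12 in primary and 5-month hepatocytes. In Lin- BM cells 4 of 11 were (Ass1, G6pc, Glul and Tat), while 10 of 10 blood cell markers were. Of the 10 blood cell markers, 6 were detected on both arrays at 1 month, 4 in primary and 5 in 5-month hepatocytes. Of all genes, 45.9%, 55.1% and 55.1% were. Slide, design and scan day differ together, so in every comparison across the slides they cannot be told apart from the group.

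**Figure D1:**
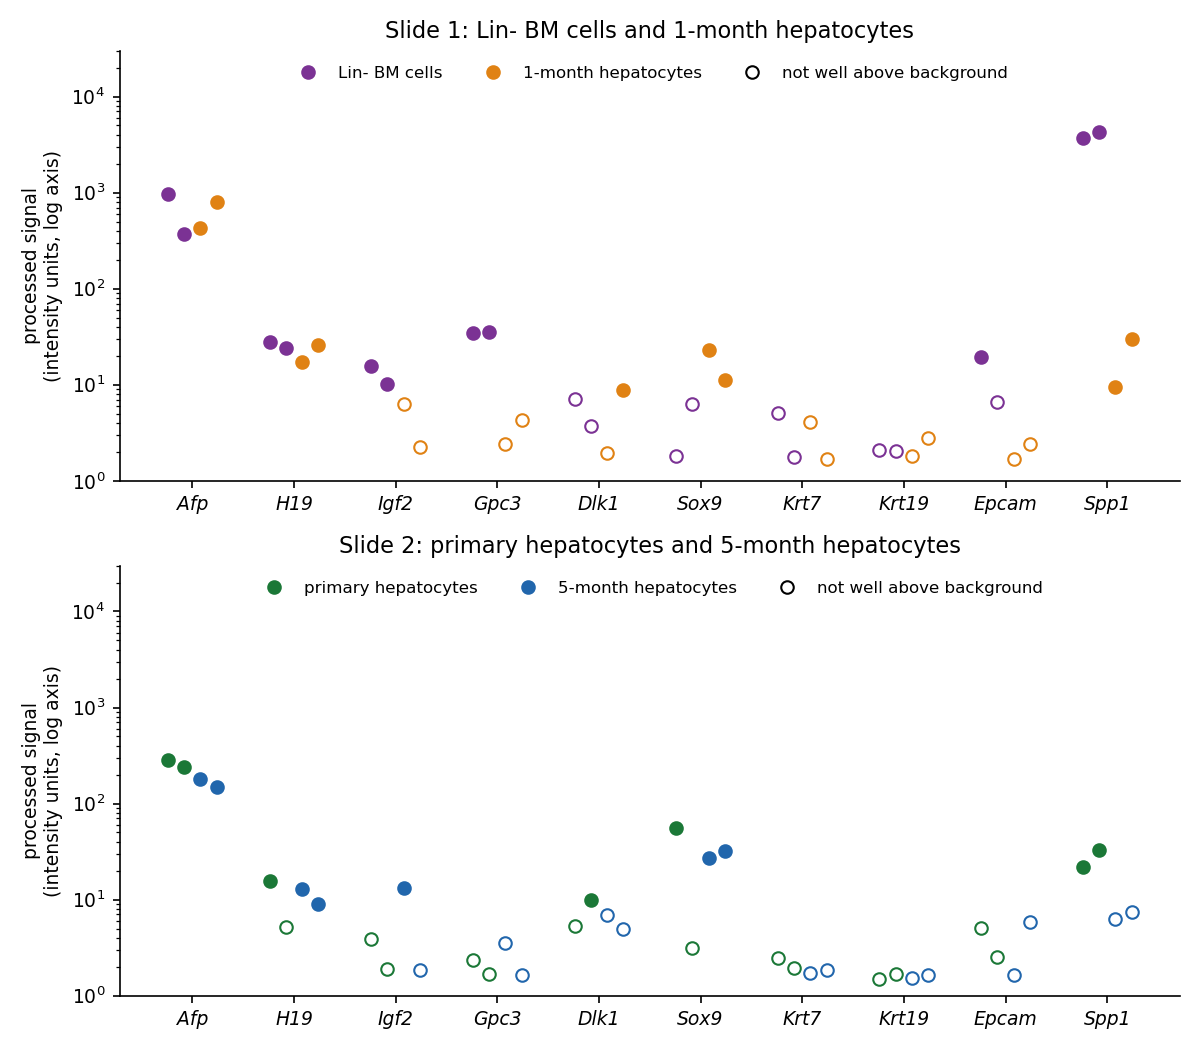
Processed signal (intensity units, log axis) of the 10 genes on each array of the first slide (top) and second slide (bottom), from 1 probe per gene and design; filled points were well above background and open points were not. Afp was detected on all 8 arrays and Krt7 and Krt19 on none, and the Spp1 points of Lin- BM cells stand at 3710 and 4270 against at most 30 at 1 month.

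In each hepatocyte group at most 4 of the 10 genes were detected on both arrays. In Lin- BM cells 5 of the 10 were detected on both arrays (Afp, Spp1, H19, Gpc3 and Igf2), at 1 month 4 (Afp, Spp1, H19 and Sox9), in primary hepatocytes 2 (Afp and Spp1) and at 5 months 3 (Afp, Sox9 and H19). Of all genes on the designs, 53.9%, 45.9%, 55.1% and 55.1% were detected in these groups in the same order. The counts of the 10 genes on the first slide were thus near the share of all genes. Spp1, H19, Igf2 and Dlk1 had different probes on the designs, so these counts give no comparison between the slides. Krt7 and Krt19, the keratins of the bile duct, were detected on none of the 8 arrays, with signals between 1.7 and 5.12 for Krt7 and between 1.5 and 2.79 for Krt19. Epcam, a surface protein of bile duct and other epithelial cells, was detected on array L3 alone, at 19.5 against 6.6 on L4, 1.7 and 2.41 at 1 month, and 1.66 to 5.91 on the second slide. A difference in these 3 genes below the detection limit of the arrays could not be seen. Keratins 8 and 18, which hepatocytes and bile duct cells share, were far from this limit in the 3 hepatocyte groups. Krt8 read 18.3 and 12.2 in Lin- BM cells and 11700 and 9330 at 1 month.

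Afp was the only one of the 10 detected on all 8 arrays. Its signal was 973 (L3) and 374 (L4) in Lin- BM cells, 431 (B1) and 801 (B2) at 1 month, 287 (H2) and 242 (H4) in primary hepatocytes and 181 (G1) and 150 (G3) at 5 months. The Lin- BM cell and 1-month arrays overlapped, and both 5-month arrays lay below both primary hepatocyte arrays. Afp stood at the 80.6th to 89.6th percentile of the probes of an array on the first slide and at the 77.5th to 79.5th on the second. Albumin, the adult relative of alpha-fetoprotein, was not detected in Lin- BM cells (Alb signals 1.88 and 1.76 on L3 and L4) and read 74200 and 79400 at 1 month. The design had a single Afp probe, with 1 spot on the first slide and 10 on the second, so no other probe could be set against it, and whether it binds other RNA was not tested.

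Between 1-month hepatocytes and Lin- BM cells the Afp change was 1.13 on the log2 scale (95% interval -0.2 to 2.47, adjusted p = 0.119), with no call. Without array L3 it was 1.76 and was called (adjusted p = 0.0424). Between 5-month and primary hepatocytes it was -0.43 (-0.96 to 0.1, adjusted p = 0.432), again with no call, on values that did not overlap. Across the slides, on the shared probes, the mean of 1-month hepatocytes was 4.41-fold that of primary hepatocytes (log2 change 2.14 ± 0.47, SE, 2 arrays each, adjusted p = 0.0293). At 5 months Afp was 5.78-fold lower than at 1 month (log2 change -2.53 ± 0.47, adjusted p = 0.0181) and 2.58-fold lower than in Lin- BM cells (-1.37 ± 0.47, adjusted p = 0.0389). In primary hepatocytes against Lin- BM cells it differed by -0.98 (adjusted p = 0.108). In log2 units relative to the 75th percentile of the shared probes, the arrays read 0.97 and -0.43 in Lin- BM cells, 1.08 and 1.78 at 1 month, -0.69 and -0.74 in primary hepatocytes, and -1.07 and -1.13 at 5 months. The order from high to low was thus 1 month, Lin- BM cells, primary hepatocytes and 5 months, where neighbouring groups did not differ past the threshold. Every array of the first slide read above every array of the second. The part of this order that lies between the slides therefore cannot be told apart from slide, design and scan day.

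The cross-slide calls of Afp rested on few arrays. The call of 1 month against primary hepatocytes was lost without any one of the arrays H2, H4, B1, B2, G1 or G3 (adjusted p from 0.056 to 0.141, log2 change from 1.79 to 2.5), and that of 5 months against 1 month without B2, G1 or G3 (0.0937 to 0.0961). The call of 5 months against Lin- BM cells was lost without L3, H2, H4, G1 or G3 (0.0559 to 0.145), and without L3 the change was -0.67. These comparisons share their arrays and are not independent of each other.

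**Figure D2:**
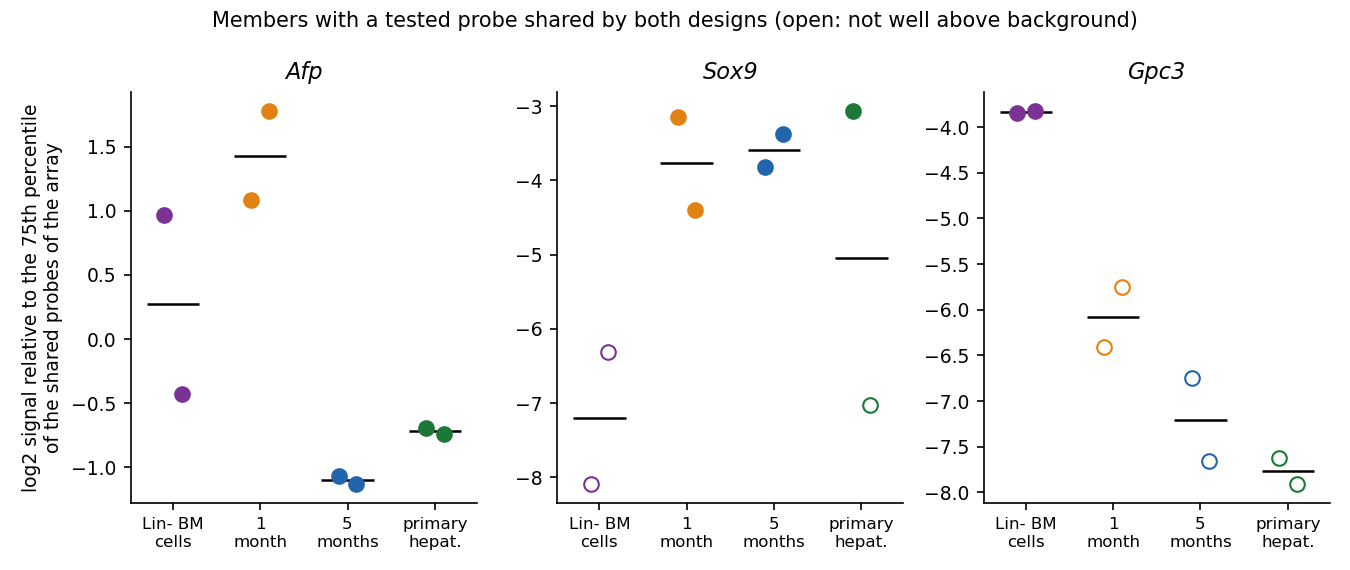
Log2 signal of Afp, Sox9 and Gpc3 on the probes shared by both designs, relative to the 75th percentile of the shared probes of each array; each point is an array, lines are the means of 2 arrays, open points were not well above background, and the panels have different axes. Afp is highest at 1 month and lowest at 5 months, with both groups of the first slide (Lin- BM cells and 1 month) above both of the second. Sox9 is low in Lin- BM cells and on 1 of 2 primary hepatocyte arrays, and Gpc3 is detected in Lin- BM cells alone.

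The 1-month hepatocytes and Lin- BM cells, both on the first slide, gave the comparison with the most calls. Of the 10 genes 6 could be tested, of which 2 were called higher at 1 month (Sox9 and H19) and 2 lower (Spp1 and Gpc3), where 28.8% of all 28535 genes tested were called higher and 26.5% lower. Over the 6 genes the median log2 change was 0.15, against 0.07 over all genes. Sox9, Gpc3 and Igf2 entered the test through the group in which they were detected, so their presence among the genes tested already required a difference in detection. In these bulk samples, fewer cells of a type and less RNA per cell cannot be told apart.

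Spp1, which encodes the secreted matrix protein osteopontin, read 3710 and 4270 in Lin- BM cells and 9.42 and 30 at 1 month, all 4 detected. The groups lay far apart. The level at 1 month was 105-fold lower (log2 change -6.71 ± 0.53, adjusted p = 0.000955, limma). Bile duct cells, bone cells and macrophages are all known to make osteopontin, so the lists of other cell types were read beside it. In Lin- BM cells the summed signal of the stellate cell and fibroblast list (10 genes, 7 detected on each array) was 4460 on L3 and 30600 on L4, where Spp1 was nearly equal on both. The Kupffer cell and macrophage list (10 genes) summed to 821 and 1180 in Lin- BM cells and to 726 and 3630 at 1 month, with 6 to 8 genes detected on each array. Spp1 was also the higher of its pair on the 1-month array with the higher Kupffer cell sum, and the part of these cells in the result was not tested. The receptors of osteopontin Cd44, Itgb3 and Itga4 were called lower as well, and Itgav and Itga9 higher.

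Sox9, a transcription factor of bile duct cells and of hepatocytes near the portal vein, read 1.83 and 6.35 in Lin- BM cells, neither detected, and 23.1 and 11.1 at 1 month, both detected. Sox9 was thus at least 4.43-fold higher at 1 month (fitted log2 change 3.4 ± 0.78, adjusted p = 0.0191). Another Sox9 probe of the slide read 145 on B1 but 7.32 on B2, where it was not detected, and the remaining one was detected on no array. The probes thus disagreed on the size of the Sox9 signal at 1 month. The call was lost without L3 (log2 change 2.44) or without B1 (2.75). It was also lost on shared probes with the pooled spread (adjusted p = 0.0511, limma) and by the methods' t-test after adjustment (0.165). Without a filter, or with detection on 1 array as the filter, the probe that read 145 on B1 stood for Sox9. Its log2 change was 4.23, with no call in limma (adjusted p = 0.0952 and 0.0866). Under the normexp background correction the call of the first probe was kept, with a log2 change of 1.07.

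Gpc3 encodes glypican 3, a cell surface proteoglycan that binds growth factors and is known from fetal liver and liver tumours. It was detected in Lin- BM cells at 34.4 and 35.8 and not at 1 month, with 2.4 and 4.33. The level at 1 month was at least 2.19-fold lower (fitted log2 change -2.27 ± 0.32, adjusted p = 0.00481). With the normexp background correction the change was 0.14 (adjusted p = 0.371), where the median over all genes moved from 0.07 to 0.37.

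H19 and Igf2 are neighbours on mouse chromosome 7 that share enhancers and are expressed from opposite parental alleles. H19 read 27.9 and 24.4 in Lin- BM cells and 17.3 and 25.7 at 1 month, all 4 detected and overlapping in signal. Relative to the 75th percentile the arrays were -2.78, -2.85, -2.11 and -1.79, so that H19 was called 1.82-fold higher at 1 month only after scaling (log2 change 0.87 ± 0.27, adjusted p = 0.0471). The call was lost with any 1 of the 4 arrays left out, with log2 changes from 0.7 to 1.03. With all arrays, limma lost it under quantile normalization (adjusted p = 0.0605) and with the 75th percentile over other probes (0.0522). Detection on 1 array as the filter (0.0628) and the methods' t-test after adjustment (0.0873) lost it too. Igf2, the fetal growth factor, read 15.5 and 10.3 in Lin- BM cells, both detected, and 6.37 and 2.23 at 1 month, neither detected. Its change was -0.57 (-2.2 to 1.06, adjusted p = 0.47), with no call, and the other Igf2 probe was detected on no array. Dlk1, a transmembrane protein of hepatoblasts, was detected on B2 alone, at 8.74 against 1.93 on B1 and 7.06 and 3.75 in Lin- BM cells.

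**Figure D3:**
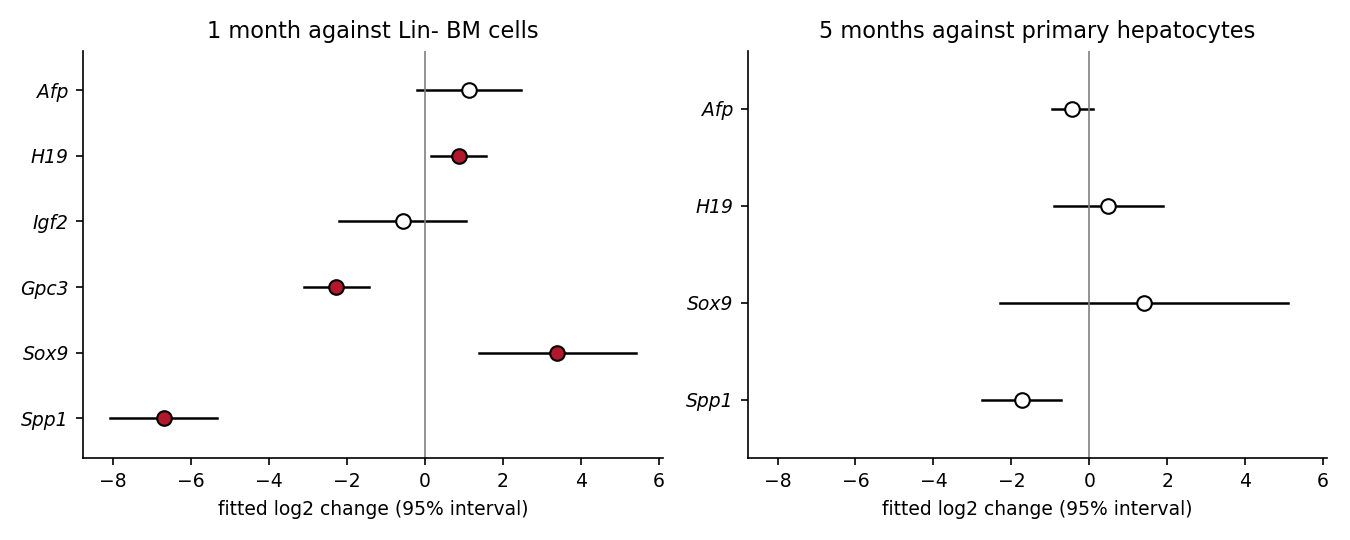
Fitted log2 change of each gene tested within a slide, with its 95% interval from limma (2 arrays per group); red points were called and white points were not, and the change of a gene not detected in one group (Sox9, Gpc3 and Igf2 on the left, Spp1 on the right) depends on its background signal. On the left Spp1 stands at -6.71 and Sox9 at 3.4, and on the right no point is called.

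The 5-month and primary hepatocytes, both on the second slide, bear on whether older BM-derived hepatocytes still differed from hepatocytes of the liver. Of the 10 genes 4 could be tested and 0 were called, where 0.366% of all 19933 genes tested were called higher at 5 months and 0.186% lower. At an unadjusted p under 0.05, limma gave 2817 of all genes and, of the 4, Spp1 alone. Spp1 read 21.6 and 33.2 in primary hepatocytes, both detected, and 6.21 and 7.44 at 5 months, neither detected. The groups did not overlap, and the primary hepatocyte mean was at least 3.1-fold the limit for 5 months, with an adjusted p of 0.183. Spp1 entered this test through the primary hepatocytes alone, so its being tested already required a difference in detection. On the same arrays the Kupffer cell and macrophage list summed to 7630 and 9440 in primary hepatocytes and 17600 and 14300 at 5 months. Of its 10 genes 9 were detected on each array. The part of these cells in the Spp1 difference was not tested. Sox9 read 55.5 on H2, 3.11 on H4 (not detected), and 26.9 and 31.9 at 5 months. The primary hepatocyte arrays lay on either side of both 5-month arrays, and the interval of the change was wide (log2 change 1.4, -2.28 to 5.09, adjusted p = 0.702). Leaving out H2 gave 3.4 with a call (adjusted p = 0.00636) and leaving out H4 gave -0.59 (adjusted p = 0.3), so the direction for Sox9 differed with the primary hepatocyte array left in. Without H2, Spp1 was called as well (-2.13, adjusted p = 0.0217). With 1 primary hepatocyte array left, the spread comes from the 5-month pair alone, and the single array is assumed to vary like it. In that fit calls became more frequent among all 19933 genes as well, with 940 higher and 593 lower without H2 and 1093 higher and 531 lower without H4, against 73 and 37 with both.

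H19 was weak on the second slide. Its brightest probe read 15.6 and 5.23 in primary hepatocytes, detected on H2 alone, and 12.8 and 8.9 at 5 months, both detected, and the change was 0.49 (-0.91 to 1.89, adjusted p = 0.727). The other 6 H19 probes of this design gave 1 detection, on H2 at 11.6. Igf2 was detected on G1 alone, at 13.1 against 1.87 on G3 and 3.93 and 1.91 in primary hepatocytes. One of 2 Dlk1 probes was detected on H4 alone, at 9.79. Gpc3 was detected by neither of its 2 probes, with signals from 1.55 to 3.54.

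Across the slides Afp, Sox9 and Gpc3 could be tested, 3 of the 6 that shared a probe. Gpc3 alone was called in primary hepatocytes against Lin- BM cells, where 29.3% of 9233 genes were called higher and 38% lower. It was at least 4.41-fold lower there (fitted log2 change -3.93 ± 0.38, adjusted p = 0.000148). Gpc3 entered the tests across the slides through Lin- BM cells alone, the one group with a detected signal. Sox9 entered them through the 1-month and 5-month hepatocytes, and was undetected in Lin- BM cells. At 5 months against Lin- BM cells, the testing of both genes thus already rested on a difference in detection. In 5-month hepatocytes against Lin- BM cells, Sox9 was called higher and Gpc3 and Afp lower, with 29.3% of all genes higher and 37.8% lower. Gpc3 was at least 3.55-fold lower (-3.37 ± 0.38, adjusted p = 0.000313) and Sox9 at least 7.71-fold higher (3.6 ± 1.27, adjusted p = 0.0408). The Sox9 call was lost without any one of L3, L4, B1, B2, G1 or G3 (adjusted p from 0.0534 to 0.192), without a filter (0.0535) and by the methods' t-test after adjustment (0.1), and under normexp the change was 0.9 with a call. In primary hepatocytes against Lin- BM cells, Sox9 had no call (2.16, adjusted p = 0.172), and without H4 it was 4.14 with a call (adjusted p = 0.00802).

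In 1-month against primary hepatocytes, Afp and Gpc3 were called higher, with 11.6% of all genes called higher and 5.08% lower. Gpc3 was detected on none of the 4 arrays, so its call gives no order of the groups. Such calls were not rare in this comparison: 182 of the 1541 genes called (11.8%) were detected on no array of either group, and all 182 were called higher at 1 month. In 5 months against 1 month, Afp alone was called, lower at 5 months, with 5.81% of all genes called higher and 11.3% lower. The Sox9 difference there was 0.18 (-2.86 to 3.21, adjusted p = 0.939), an interval too wide to tell the groups apart or to show them alike.

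Other genes of the same 2 programmes were read from fixed lists, and each was described by its counts. Of 16 other fetal liver genes, 11 could be tested at 1 month against Lin- BM cells, and 5 were called higher and 3 lower (median log2 change 0.55, against 0.07 over all genes). Slc38a4, an imprinted amino acid transporter, was undetected in Lin- BM cells, and its 1-month signals of 5960 and 7860 were at least 1890-fold higher. Cyp3a16, a cytochrome P450 of the young mouse liver, was at least 2040-fold higher (4950 and 11000). Slc38a4 and Cyp3a16 were also detected on both arrays of primary hepatocytes and of 5-month hepatocytes. Their gain over Lin- BM cells therefore does not mark 1-month hepatocytes as immature. Cd24a, a surface protein of hepatoblasts and of many blood cells, was at least 720-fold lower. Meg3, the imprinted noncoding RNA next to Dlk1, read 19.4 and 13.2 in Lin- BM cells and 54.8 and 941 at 1 month (log2 change 5 ± 1.26, adjusted p = 0.0252), with a wide gap between B1 and B2. Igf2bp1, Igf2bp3, Lin28b, Peg3 and Zim1 were detected on none of the 8 arrays.

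Between 5-month and primary hepatocytes 10 of these fetal genes were tested and 0 were called (median 0.2, against 0.04). The 2 with the largest differences, Meg3 (-1.88, adjusted p = 0.505) and Grb10 (1.39, adjusted p = 0.182), did not pass. Of 10 tested on shared probes, 5 were called higher and 2 lower in primary hepatocytes against Lin- BM cells, 4 higher and 2 lower at 5 months against Lin- BM cells, 2 higher and 0 lower at 1 month against primary hepatocytes, and 0 higher and 1 lower at 5 months against 1 month.

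Of 20 other biliary and oval cell genes, 12 could be tested at 1 month against Lin- BM cells, and 5 were called higher and 2 lower (median 1.12, against 0.07). Onecut2, a transcription factor of hepatoblasts that hepatocytes also express, rose from 21.9 and 13.3 to 1630 and 1390 (log2 change 7.64 ± 0.35, adjusted p = 0.000236). Pkhd1, which encodes the cilium protein fibrocystin, was at least 6.02-fold higher. Lgr5, a receptor for R-spondin found on oval cells and on hepatocytes around the central vein, rose by 3.91 (± 0.48, adjusted p = 0.00312). The protease gene St14 was at least 8.46-fold lower. Cldn4, Ehf, Elf3 and Foxl1 were detected on none of the 8 arrays, and Prom1, a marker of oval cells, on G1 alone, at 23.3.

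Between 5-month and primary hepatocytes 11 of these biliary genes were tested and 0 were called (median -0.01, against 0.04). The largest differences were those of Krt23 (-1.82, adjusted p = 0.134) and Lgr5 (1.39, adjusted p = 0.382). Of 7 tested on shared probes, 2 were called higher and 4 lower in both hepatocyte groups of the second slide against Lin- BM cells, 2 higher and 1 lower at 1 month against primary hepatocytes, and 0 higher and 1 lower at 5 months against 1 month. Of those called higher at 1 month against primary hepatocytes, Mmp7 was detected in neither group.

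**Figure D4:**
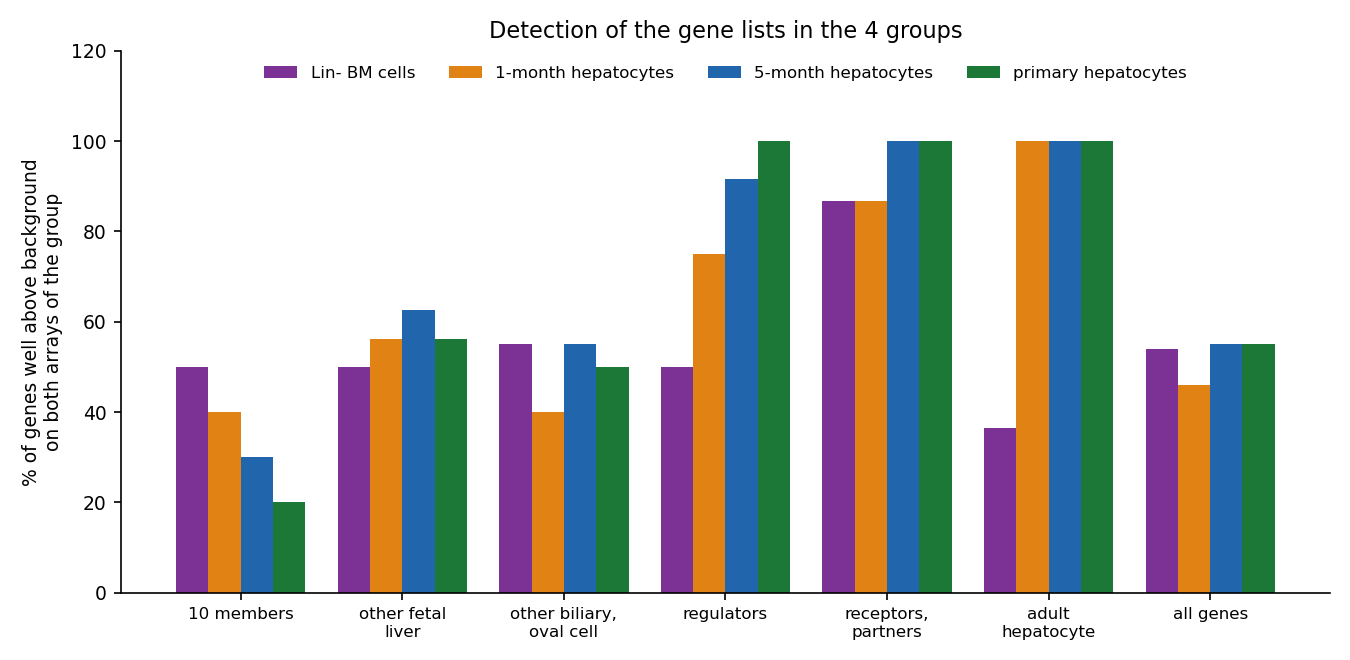
Share of the genes of each list that were well above background on both arrays of a group, in percent, with the same share over all genes of the design at the right; each bar is 1 group of 2 arrays. The 10 genes stand at 50% in Lin- BM cells and 40% at 1 month on the first design, against 53.9% and 45.9% of all genes. On the second design they stand at 20% in primary and 30% in 5-month hepatocytes, against 55.1% of all genes in each. Probes of Spp1, H19, Igf2 and Dlk1 differ between the designs. The adult hepatocyte markers stand at 100% in the 3 hepatocyte groups and at 36.4% in Lin- BM cells.

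The regulators of these genes were read from a list of 12. In primary hepatocytes all 12 were detected on both arrays, Onecut1 among them. Of 10 tested at 1 month against Lin- BM cells, 7 were called higher and 1 lower (median 2.61, against 0.07). Those with the largest changes were Nr5a2, a nuclear receptor that acts on Afp (8.88 ± 0.35, adjusted p = 0.000162), Onecut1, a hepatoblast and biliary factor (at least 114-fold higher), Hnf4a, the main factor of hepatocyte identity (7.14 ± 0.4, adjusted p = 0.000374), and Sox4, a partner of Sox9 in bile duct formation, which fell (-5.8 ± 0.7, adjusted p = 0.00299). Jag1, the Notch ligand of bile duct formation, rose (2.43 ± 0.3, adjusted p = 0.00328), while the Notch target Hes1 had a change of 2.33 (adjusted p = 0.0629) and Notch2 one of -0.81 (adjusted p = 0.0542), with no call.

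Zbtb20 and Zhx2 are known as repressors of Afp in the liver after birth, and Zhx2 also of H19 and Gpc3. Zbtb20 read 249 and 129 in Lin- BM cells and 318 and 288 at 1 month (log2 change 1.93 ± 0.39, adjusted p = 0.0127). Zhx2 was detected on no array of the first slide (1.62 to 1.89), in primary hepatocytes at 13.6 and 11.8 and not at 5 months, with 6.04 and 4.84. On the shared probe Zhx2 was at least 2.94-fold higher in primary hepatocytes than in Lin- BM cells (adjusted p = 3.18e-05) and at least 1.63-fold lower at 1 month than in primary hepatocytes (adjusted p = 0.00351). Zhx2 entered the tests through the primary hepatocytes alone, so its being tested already rested on a difference in detection. Within the second slide the Zhx2 difference of 5 months against primary hepatocytes had no call (adjusted p = 0.167). Of all 12 regulators tested there, 0 were called, and the largest differences were those of Nr5a2 (-1.44, adjusted p = 0.135) and Onecut1 (-1.11, adjusted p = 0.323). Of 5 on shared probes, 4 were called higher and 1 lower in primary hepatocytes against Lin- BM cells, 4 higher and 0 lower at 5 months against Lin- BM cells, 0 higher and 1 lower at 1 month against primary hepatocytes, and 3 higher and 0 lower at 5 months against 1 month. Zhx2 was among those called higher at 5 months in both comparisons with the first slide, although it was detected in neither group there.

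Receptors, binding proteins and partners of the 10 genes made up a list of 15, all tested on both slides. At 1 month against Lin- BM cells 10 were called higher and 5 lower (median 2.08, against 0.07). Igfbp1, a binding protein for insulin-like growth factors made by hepatocytes, was at least 16600-fold higher and Igfbp2 at least 1090-fold higher. Krt8 rose by 10.62 (± 0.34). The receptor genes divided: Igf1r, the signalling receptor for Igf2, fell (-5.18 ± 0.33, adjusted p = 0.00052), while Igf2r, which clears Igf2, and Insr rose (1.12 ± 0.3, adjusted p = 0.0294, and 2.16 ± 0.31, adjusted p = 0.0047). Itga4, an integrin chain that binds osteopontin, was at least 141-fold lower. Between 5-month and primary hepatocytes 0 of the 15 were called, the largest differences being those of Itga9 (-1.79, adjusted p = 0.0705) and Itgb3 (1.68, adjusted p = 0.276). Of 11 on shared probes, 8 were called higher and 2 lower in each hepatocyte group of the second slide against Lin- BM cells, 0 higher and 2 lower at 1 month against primary hepatocytes, and 2 higher and 1 lower at 5 months against 1 month.

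Markers of other cells were called in several of these comparisons as well. At 1 month against Lin- BM cells, 28.8% of all genes tested were called higher and 26.5% lower. Blood cell markers were called lower in 9 of 10 and proliferation genes in 8 of 8. Called higher were 11 of 11 adult hepatocyte markers and 7 of 8 sinusoidal endothelial markers tested (1 lower). Of the Kupffer cell and macrophage markers, 4 of 9 were called higher and 2 lower. Of the stellate cell and fibroblast markers, 2 of 8 were called higher and 2 lower, near the shares of all genes. The Kupffer cell sum at 1 month was 726 on B1 and 3630 on B2, and Clec4f, a lectin of Kupffer cells, read 103 and 682. Afp was the higher on B2 and Sox9 the higher on B1. In 5-month against primary hepatocytes 0 genes of these lists were called, where 0.366% of all genes were called higher and 0.186% lower. At such shares, 0 calls in lists this short tell nothing about these cells. At 5 months against 1 month, where Afp was called lower, 5.81% of all genes were called higher and 11.3% lower. On shared probes 2 of 5 Kupffer cell and macrophage, 3 of 6 adult hepatocyte and 1 of 3 proliferation genes tested were called higher. Of the sinusoidal endothelial genes 1 of 6 was called lower, and 0 of 6 stellate cell and 0 of 3 blood cell genes were called. A single call in a list this short cannot be set apart from the shares of all genes. The part of such cells in the results above was not tested.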

How the data were processed

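Array intensities deposited for each of 8 arrays were the background-subtracted processed signals of Agilent Feature Extraction 11.5.1.1 (grid build mm9). The authors also deposited log2 values shifted to the 75th percentile in GeneSpring GX, used here as an alternative. Control spots and outlier spots were left out, spots of a probe averaged, and log2 signals set relative to the 75th percentile of each array. Genes were named through RefSeq (GRCm38.p6) accessions and symbols. The filter kept a probe marked well above background in each array of 1 group or more, and the brightest probe stood for its gene. Comparisons within a slide used all its probes, and those across slides 13991 probes of identical sequence (13248 genes) with the spread pooled over the 4 groups. limma 3.58.1 (R 4.3.3) gave the tests. They measure the spread between 2 arrays per group and were tried on simulated data. Those data held no slide difference and no detection limit, so the trial does not bear on comparisons across slides or on faint signals. The number of arrays limits the precision. A fold against an undetected group is a lower bound for the group means, against the higher of the lowest detected signal and the probe's own on each array. It leaves out the spread between arrays. Figures were drawn with matplotlib 3.10.9 in Python 3.11.15.

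The 10 genes and all lists were chosen with earlier results of these data known. The genes named singly were all 10, every regulator where it bears on them, and in each other list up to 4 called genes, or the 2 largest differences where none was called, in the comparisons within a slide. Other names are of receptors and markers beside a result, of genes detected nowhere, and Prom1, chosen after their values were seen. Alternatives were normexp (offset 50), quantile normalization, other percentiles, filters and probe rules, the authors' values, the methods' t-test and each array left out.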

Additional observations from a re-analysis of the deposited data

How the results depend on the processing

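No paired analysis was run, because the labels give no link between samples of different groups. Of the 10 genes, 4 were called at 1 month against Lin- BM cells, 2 with detection on 1 array as the filter, 0 by the methods' t-test after adjustment and 1 on shared probes with the pooled spread, which hold neither Spp1 nor H19. The 1 call of primary hepatocytes against Lin- BM cells became 0 under normexp. The 3 calls of 5 months against Lin- BM cells became 1 without a filter, 1 by the methods' t-test unadjusted and 1 adjusted. The 2 calls of 1 month against primary hepatocytes became 3 without a filter, 1 under quantile normalization and 0 by the adjusted t-test of the methods, which called 0 of 9233 genes higher and 2 lower. The 1 call of 5 months against 1 month became 2 under normexp, 2 without a filter and 0 by the methods' t-test after adjustment (4 of all genes higher, 10 lower). In both of these comparisons the call added without a filter was that of Krt19, which was detected on none of the 8 arrays. Leaving out 1 array at a time gave 2 to 3 calls at 1 month against Lin- BM cells (2 without B1), 0 to 2 in 5 months against primary hepatocytes (2 without H2), 1 to 2 in primary hepatocytes against Lin- BM cells, 1 to 2 in 5 months against Lin- BM cells, 0 to 2 in 1 month against primary hepatocytes and 0 to 1 in 5 months against 1 month. Gpc3 reversed at 1 month against Lin- BM cells under normexp (0.14), and its calls in both hepatocyte groups of the second slide were lost there (-0.29 and -0.24). Spp1 at 1 month was lost by the methods' t-test after adjustment alone (adjusted p = 0.0559; log2 change from -7.43 to -6 with an array left out). Apart from the values given here, the cause was not tested. Signals near background limit the other genes.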
